A study of Mus musculus and Ochotona curzoniae and Rattus norvegicus with 18 samples.

Results

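The CREB transcription factors, their CRTC coactivators and the salt-inducible kinases (SIKs) were compared between Tibetan pika and mouse skin fibroblasts. The 9 genes were chosen by symbol: CREB1, CREM and ATF1, then CRTC1, CRTC2 and CRTC3, then SIK1, SIK2 and SIK3. All 9 were found in both tables and all 9 passed the filter on low values, among 14418 genes joined by symbol and 10348 genes tested. The pika cells came from Ochotona curzoniae, a high-altitude relative of rabbits, with 3 libraries. The mouse cells came from the C57BL/6J strain, also with 3 libraries. Both were grown in DMEM with 10% serum at 37 °C and 5% CO2 and lysed at 90% confluency, without a treatment in the labels. The labels give no age, sex or number of animals, no time of collection and no synchronisation, and the clock phase of the cells is therefore unknown. Rat and rabbit libraries and 6 ChIP-seq samples belong to the same series and are not analysed here.

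In this pathway, cyclic AMP and calcium signals lead to phosphorylation of CREB proteins, which bind the cyclic AMP response element (CRE) in DNA. CRTC proteins are CREB coactivators. In resting cells SIKs phosphorylate CRTCs, 14-3-3 proteins then hold them in the cytoplasm, and calcineurin can release them. Protein kinase A inhibits SIKs. In the brain clock of mice, light acts through CREB and CRTC1 to induce Per1 and also Sik1, whose product then shuts CRTC1 off and limits how far the clock is reset. Fibroblast clocks are reset by serum and by agents that raise cyclic AMP.

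Levels are rescaled FPKM: the FPKM deposited by the authors (fragments relative to library total and gene model length), with each library then scaled so that the joined genes sum to 1000000. The joined genes held 87.1% of the summed FPKM in each pika library and 37.0% to 38.3% in the mouse libraries. Rescaling therefore raised mouse values more than pika values. A gene was called higher or lower at a limma-trend adjusted p under 0.05 with an absolute log2 fold change of at least 1. Fold changes are pika over mouse and were taken after adding 1 to each value, which understates the change of low genes. By this rule 3 of the 9 genes were called higher in pika (SIK2, CREB1 and CRTC1), 1 lower (CREM) and 5 were not called. Over all tested genes 52.2% were called, 28.7% higher and 23.5% lower, so the number of calls among the 9 genes was near the background. Of all tested genes 2970 were called higher and 2433 lower, and without rescaling 6029 were called higher and 1106 lower. Regardless of fold size, 8 of the 9 genes had an adjusted p under 0.05 by limma-trend, against 88.6% of tested genes. The median log2 fold change was 0.30 for the 9 genes and 0.21 for all tested genes. Libraries of the species did not overlap for 7 of the 9 genes, against 89.0% of tested genes.

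Library totals were 7703576 to 8481030 reads in pika and 3663102 to 5758950 in mouse. The labelled tissue is epidermis. The 9 of 11 fibroblast markers found in both tables held 2 higher and 3 lower calls (55.6% called, against 52.2% of all tested genes). COL1A1 was at 4787 ± 130.0 in pika cells against 4811 ± 117 in mouse cells (SD, n = 3 each). VIM was at 4335 ± 64.8 in pika cells against 5298 ± 138 in mouse cells. FAP (log2 fold change 4.31) and DCN (1.22) were called higher, and COL3A1 (-5.32), PDGFRA (-3.89) and PDGFRB (-1.04, but 0.24 without rescaling) lower. FAP passed the filter on low values only through its pika level. COL3A1 was at 22.9 ± 1.44 in pika cells against 955 ± 16.4 in mouse cells, and PDGFRA at 3.47 ± 0.340 in pika cells against 65.1 ± 4.21 in mouse cells. Keratinocyte markers, which define epidermis, were at or near 0 in pika. KRT10 was at 0 in every pika library and 4.41 to 5.48 in mouse. The markers KRT5, KRT14, CDH1 and EPCAM were at 0 in every pika library and above 0 in a single mouse library each. The summed level of the 6 of 8 keratinocyte markers found in both tables was 0.121 to 0.201 in pika and 47.8 to 53.1 in mouse, with DSP at 45.2 ± 2.22 in mouse. The sum of 5 smooth muscle or pericyte markers was 31.4 to 35.7 in pika and 831 to 843 in mouse, with CNN1 at 1.30 ± 0.321 in pika cells against 745 ± 1.45 in mouse cells. The sum of 6 endothelial markers was 0.707 to 1.60 in pika and 32.3 to 39.3 in mouse. It came mostly from TEK, at 0.702 ± 0.259 in pika cells against 31.4 ± 3.94 in mouse cells. CDH5 and KDR were at 0 in every pika library and at 1.21 (CDH5) and 1.17 (KDR) on average in mouse. The sum of 6 leukocyte markers was 2.94 to 4.73 in pika and 25.5 to 38.2 in mouse, mostly from CD68 (15.8 ± 6.26 in mouse) and CSF1R (12.2 ± 1.60 in mouse). PTPRC, ADGRE1 and ITGAM were at 0 in every pika library and at 0.127 to 2.30 on average in mouse, and CD3E was at 0 in all 6 libraries. The sum of 5 of 6 melanocyte markers was 68.1 to 78.5 in pika and 54.8 to 58.3 in mouse. MITF was at 40.2 ± 2.50 in pika cells against 50.5 ± 2.68 in mouse cells and was not called. PMEL was called higher (log2 fold change 2.52, and under all the other scalings). It was at 31.6 ± 2.80 in pika cells on 693 reads against 4.97 ± 2.15 in mouse cells on 15 reads. PMEL also passed the filter on low values only through its pika level. The part of these marker differences in the results below was not tested. In bulk RNA a lower level per cell and fewer expressing cells cannot be told apart.

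Mouse promoter sequence, from 250 bases before to 50 bases after the start set for each window, was used for 6 of the 9 genes (RefSeq, GRCm38.p6): Creb1, Atf1, Crtc1, Crtc3, Sik2 and Sik3. For Sik2, Creb1, Crtc1 and Crtc3 that start lies inside the gene coordinates given below. Part of the Sik2 stretch therefore overlaps the gene as given there. Those of Crem, Crtc2 and Sik1 are not used here. Each window was searched on both strands for the full CRE TGACGTCA, its half-site TGACG (part of the full CRE), the E-box CACGTG, which CLOCK and ARNTL bind, and the GC box GGGCGG. None of the 6 windows held the full CRE, which 1.79% of all 32851 windows held. Half-sites were found for Sik3, Sik2 and Atf1 (20.8% of all windows), E-boxes for Sik3 and Atf1 (7.15%) and GC boxes for Sik2, Crtc3, Creb1 and Atf1 (35.7%). The stretches below show the letters before the start for SIK2 and CREB1, the most raised of the 9 genes in pika, and for SIK3 and ATF1, whose windows hold an E-box beside a half-site. Capitals mark GC boxes on either strand in the first pair, and half-sites and E-boxes in the second pair.
Sik2 (chr9:51009080-51009274, minus strand, from 201 to 7 bases before the start): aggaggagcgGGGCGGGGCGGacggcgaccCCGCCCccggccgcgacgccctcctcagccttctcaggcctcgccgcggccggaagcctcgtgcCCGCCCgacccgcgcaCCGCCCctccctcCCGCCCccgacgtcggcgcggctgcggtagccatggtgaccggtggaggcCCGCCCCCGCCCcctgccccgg
Creb1 (chr1:64532730-64532755, plus strand, from 74 to 49 bases before the start): agtagcgcggGGGCGGggcctgtcga
Sik3 (chr9:46012677-46012777, plus strand, from 143 to 43 bases before the start): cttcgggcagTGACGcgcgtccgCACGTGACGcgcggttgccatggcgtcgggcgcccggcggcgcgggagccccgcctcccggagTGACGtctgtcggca
Atf1 (chr15:100227744-100227783, plus strand, from 115 to 76 bases before the start): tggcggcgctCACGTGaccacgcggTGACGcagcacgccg
The Sik2 stretch holds 8 GC boxes, some overlapping. In Sik3 the E-box shares its last bases with a half-site. These are matches of letters in mouse DNA and say nothing of binding in either species.

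The first group is the CREB family, whose members bind CREs as dimers with each other. CREB1 was at 61.4, 54.4 and 60.3 in the pika libraries and 13.6, 17.1 and 16.6 in the mouse libraries. Every pika library was above every mouse library, and the means were 58.7 ± 3.77 in pika cells against 15.8 ± 1.86 in mouse cells (SD, n = 3 each). The log2 fold change was 1.84 (SE 0.10, limma-trend adjusted p = 1.18e-07), higher in pika under every scaling tried, although without division by gene length it was 0.71 and no longer called. In GRCm38 the mouse gene, ENSMUSG00000025958, lies on chromosome 1 from 64532794 to 64604548, and Atf1 (ENSMUSG00000023027) on chromosome 15 from 100227859 to 100261248.

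CREM encodes activators and also ICER, a repressor made from an internal promoter that cyclic AMP switches on. The tables give 1 value per gene, so these forms were not separated. CREM was at 1.94, 2.68 and 2.91 in pika cells against 8.85, 4.42 and 8.64 in mouse cells, the lowest of the 9 genes in both species. The second mouse library lay nearer to the highest pika library than to the other mouse libraries, but the species did not overlap. CREM was lower in pika, with a log2 fold change of -1.20 (SE 0.25, limma-trend adjusted p = 0.00129), a call that held without any single library but was lost without rescaling (-0.12) and with a pseudocount of 5 (-0.69). The values rested on 16, 21 and 25 reads in pika cells against 56, 18 and 46 in mouse cells. The exact 95% Poisson intervals, which cover counting error only, were 47.5 to 79.5 for the 62 pika reads and 99.5 to 143 for the 120 mouse reads.

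ATF1 is close in structure to CREB1. Its level was 51.1, 39.4 and 45.3 in pika cells against 76.5, 79.5 and 70.2 in mouse cells, so that every pika library was below every mouse library. The log2 fold change of -0.73 (SE 0.10, limma-trend adjusted p = 6.02e-05) stayed inside the fold minimum and turned to 0.52 without rescaling.

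Shares within the family are given as a description, without a test. CREB1 made up 53.7%, 56.4% and 55.6% of the summed level of the 3 genes in pika cells against 13.8%, 16.9% and 17.4% in mouse cells. ATF1 made up 42.4% ± 1.99 in pika cells against 76.5% ± 2.66 in mouse cells, and CREM made up 2.38% ± 0.6002 in pika cells against 7.46% ± 2.67 in mouse cells. The summed levels were nearer, at 106 ± 9.16 in pika cells against 98.4 ± 2.82 in mouse cells, and their libraries overlapped. A share does not depend on the library scale, but it does depend on gene model length. On reads without gene length CREB1 made up 64.0% in pika cells against 44.1% in mouse cells, and ATF1 made up 33.9% in pika cells against 47.1% in mouse cells.

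**Figure D1:**
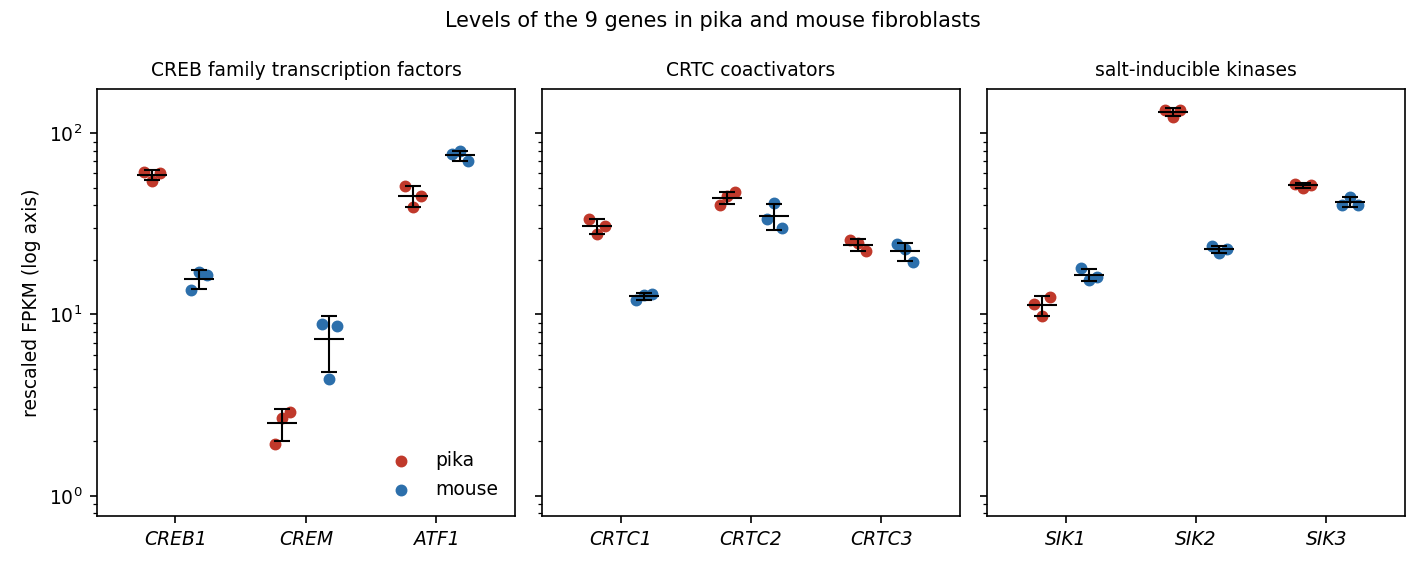
Level of each of the 9 genes in the 3 pika and 3 mouse libraries (points), with the mean and SD (bars), as rescaled FPKM on a log axis. SIK2, CREB1 and CRTC1 stand above their mouse levels and CREM below, while the species overlap for CRTC2 and CRTC3; ATF1 and SIK1 are lower in pika on this scale and higher without rescaling.

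The second group is the CRTC coactivators, which enter the nucleus when dephosphorylated and bind CREB there. CRTC1, the member studied in the brain clock, was at 33.5, 28.0 and 30.6 in pika cells against 12.0, 12.8 and 13.0 in mouse cells. Every pika library was above every mouse library. The log2 fold change was 1.22 (SE 0.10, limma-trend adjusted p = 2.23e-06), and without division by gene length it turned to -0.21. The gene models differed more in length for CRTC1 than for any other of the 9 genes, with 1932 bases in pika cells against 11182 in mouse cells, a ratio of 5.79.

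CRTC2, known for its part in hepatic glucose production, was at 40.3, 44.95 and 47.1 in pika cells against 33.5, 41.4 and 30.0 in mouse cells. The species overlapped in 1 library of each. The log2 fold change was 0.34 (95% interval 0.07 to 0.61, limma-trend adjusted p = 0.0226), inside the fold minimum. CRTC3, which acts in fat tissue and pigment cells, was at 25.8, 24.6 and 22.3 in pika cells against 24.5, 22.9 and 19.6 in mouse cells. These overlapped, and the log2 fold change of 0.12 (95% interval -0.13 to 0.37) did not pass (limma-trend adjusted p = 0.330). CRTC3 depended on the scale more than the others, at -0.05 with median-of-ratios scaling, 1.23 without rescaling (called higher) and -1.22 without gene length (called lower).

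Within the CRTC group CRTC2 was the main form by FPKM, at 44.5% ± 3.57 of the sum in pika cells against 49.8% ± 3.31 in mouse cells. CRTC1 made up 31.0% ± 2.51 in pika cells against 18.2% ± 2.24 in mouse cells, and CRTC3 made up 24.5% ± 1.92 in pika cells against 32.01% ± 2.72 in mouse cells. On reads without gene length, CRTC2 made up 46.7% in pika cells against 28.3% in mouse cells, where CRTC3 led with 43.6%. In GRCm38 Crtc1 lies on chromosome 8 from 70382352 to 70439702, Crtc2 on chromosome 3 from 90253858 to 90264125 and Crtc3 on chromosome 7 from 80586627 to 80688948.

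**Figure D2:**
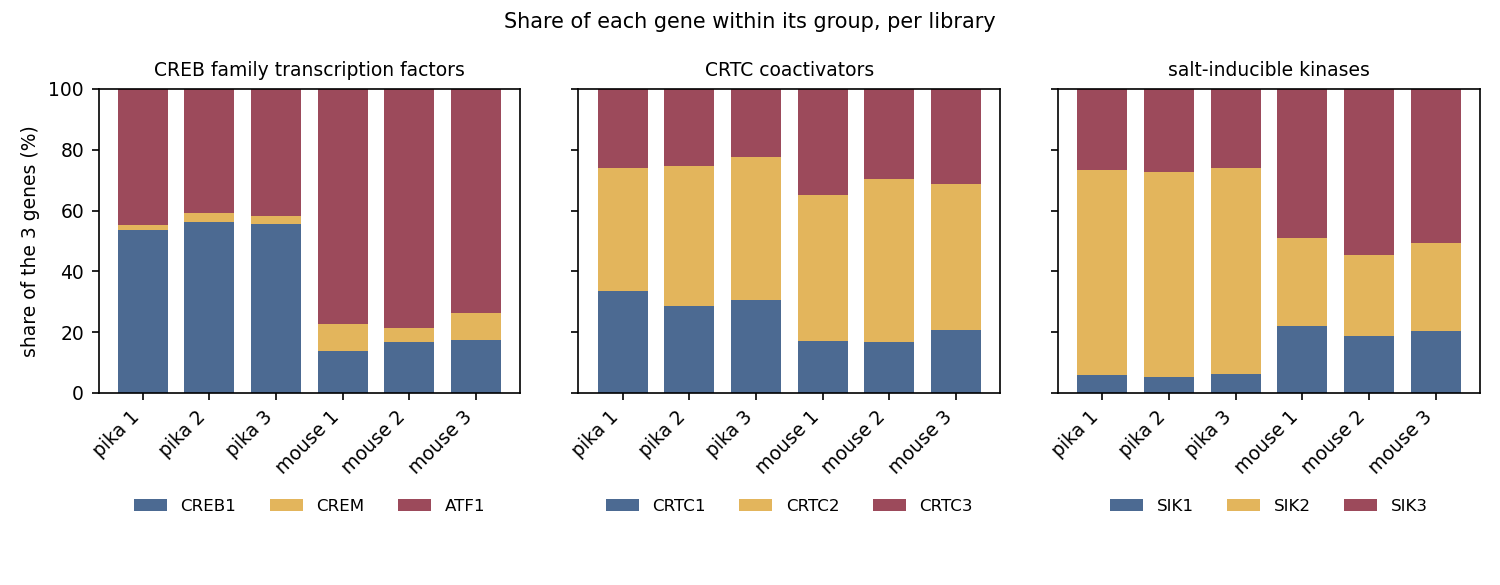
Share of each gene in the summed rescaled FPKM of its group, in percent, for each of the 3 pika and 3 mouse libraries (bars). CREB1 and SIK2 hold the largest part in pika, ATF1 and SIK3 in mouse, and CRTC2 in both; on reads without gene length CRTC3 leads the CRTC group in mouse.

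The third group is the salt-inducible kinases, relatives of AMPK that the kinase LKB1 activates and that protein kinase A inhibits. SIK2, which is abundant in fat tissue, showed the largest difference of the 9 genes. It was at 134, 123 and 135 in pika cells against 23.7, 21.7 and 23.1 in mouse cells, a gap far wider than the spread within either species. The ratio of the means was 5.72 and the log2 fold change 2.47 (SE 0.07, limma-trend adjusted p = 8.13e-10). SIK2 was the only member called in the same direction under every scaling, at 2.29 with median-of-ratios scaling, 3.53 without rescaling and 1.71 without gene length. It rested on 3958 reads in pika cells against 585 in mouse cells. The mouse gene, ENSMUSG00000037112, lies on chromosome 9 from 50889644 to 51009132 in GRCm38, and its GC-rich promoter stretch is printed above.

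SIK1, the inducible form that CREB itself switches on and that limits clock resetting in mice, was at 11.4, 9.77 and 12.5 in pika cells against 17.98, 15.4 and 16.2 in mouse cells. Every pika library was below every mouse library. The log2 fold change was -0.52 (SE 0.13, limma-trend adjusted p = 0.00320), inside the fold minimum, and it turned to 0.59 without rescaling. There were 207 reads in pika cells against 201 in mouse cells. SIK3, whose mutation lengthens sleep in mice, was at 52.8, 49.9 and 51.8 in pika cells against 40.0, 44.6 and 40.3 in mouse cells. It did not overlap between the species, but the log2 fold change was only 0.30 (SE 0.07, limma-trend adjusted p = 0.00256). Without rescaling it was 1.49 and called. Mouse Sik1 lies on chromosome 17 from 31844248 to 31855804 and Sik3 on chromosome 9 from 46012820 to 46224194.

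SIK2 made up 67.6%, 67.4% and 67.7% of the summed SIK level in pika cells against 29.1%, 26.6% and 29.0% in mouse cells. SIK3 made up 26.6% ± 0.624 in pika cells against 51.4% ± 2.89 in mouse cells, where it was the main form. SIK1 made up 5.79% ± 0.470 in pika cells against 20.4% ± 1.57 in mouse cells. On reads without gene length SIK2 still led in pika (60.6%) and SIK3 in mouse (57.0%). The summed SIK level was 193 ± 8.98 in pika cells against 81.0 ± 1.245 in mouse cells, and the summed CRTC level 99.1 ± 1.35 in pika cells against 69.9 ± 7.30 in mouse cells. The ratio of summed CRTC to summed SIK was 0.503, 0.533 and 0.502 in the pika libraries and 0.856, 0.944 and 0.786 in the mouse libraries. Without gene length this ratio was 0.338 in pika cells against 0.740 in mouse cells.

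**Figure D3:**
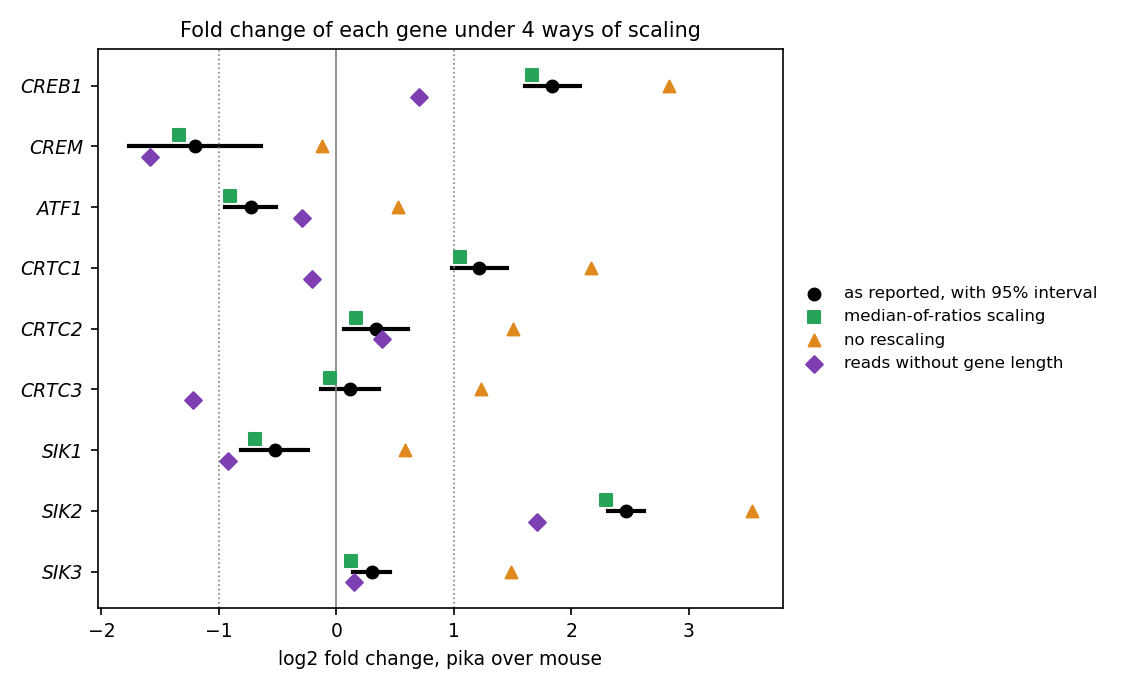
Log2 fold change of each gene, pika over mouse, as reported (circles, lines for the 95% interval) and with median-of-ratios scaling (squares), with FPKM as deposited (triangles) and on reads without gene length (diamonds); dotted lines mark the fold minimum of 1 in both directions. SIK2 lies above 1 under all 4, CREB1 under all but reads without gene length (0.71), and CRTC1 is at 1.22 as reported and at -0.21 on reads without gene length.

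The order of the levels differed between the species. In pika SIK2 led, followed by CREB1, SIK3, ATF1, CRTC2, CRTC1, CRTC3, SIK1 and CREM. Of these neighbours SIK3 and ATF1 overlapped, as did ATF1 and CRTC2. In mouse ATF1 led, followed by SIK3, CRTC2, SIK2, CRTC3, SIK1, CREB1, CRTC1 and CREM. There the overlapping neighbours were SIK3 and CRTC2, SIK2 and CRTC3, and SIK1 and CREB1. All 9 genes were above 0 in all 6 libraries.

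The counts of called genes depended on the scale. With median-of-ratios scaling 3 of the 9 genes were called higher and 1 lower, against 25.0% higher and 26.2% lower among tested genes. Without rescaling 6 were called higher and 0 lower (limma-trend), against 58.3% higher and 10.7% lower. On reads without gene length 1 was called higher and 2 lower, against 25.7% higher and 26.4% lower. The median log2 fold change of all tested genes was 0.21 as reported, 0.04 with median-of-ratios scaling, 1.29 without rescaling and 0.05 on reads without gene length. Set against that median, SIK2 stood at 2.25 under each of the first 3 and at 1.65 on reads without gene length. CREB1 stood at 1.62, 1.62, 1.54 and 0.66 in the same order. SIK1 stood at -0.74, -0.73, -0.70 and -0.98, and CREM at -1.41, -1.39, -1.41 and -1.64, so that both were below the median gene throughout. ATF1 was also below it throughout (-0.94, -0.95, -0.76 and -0.34). CRTC1 stood at 1.01, 1.01, 0.88 and -0.26, so that it was above the median gene except on reads without gene length. CRTC2, SIK3 and CRTC3 lay within 0.34 of that median, other than CRTC3 on reads without gene length (-1.27).

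For all 9 genes the mouse model was the longer one, by 1.51 times for ATF1 up to 5.79 times for CRTC1. The lengths were worked out from the FPKM steps and can be too short by a shared whole factor. Reads were computed with these lengths, so the reads and all values without gene length carry the same error. Among tested genes whose mouse model was 4 to 8 times longer, 40.3% were called higher and the median log2 fold change was 0.62. CREB1, CRTC1 and CRTC3 belong there, and their fold changes lay above those of 80.7%, 65.8% and 36.1% of the genes in that range. SIK2, SIK1, SIK3 and CREM fall in the range from 2 to 4, where the median was 0.35 and 30.2% were called higher. SIK2 lay above 93.8% of those genes, SIK3 above 48.6%, SIK1 above 28.5% and CREM above 17.6%. The length ratios of ATF1 and CRTC2 were smaller, and they lay above 29.0% and 58.7% of the genes of their range.

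**Figure D4:**
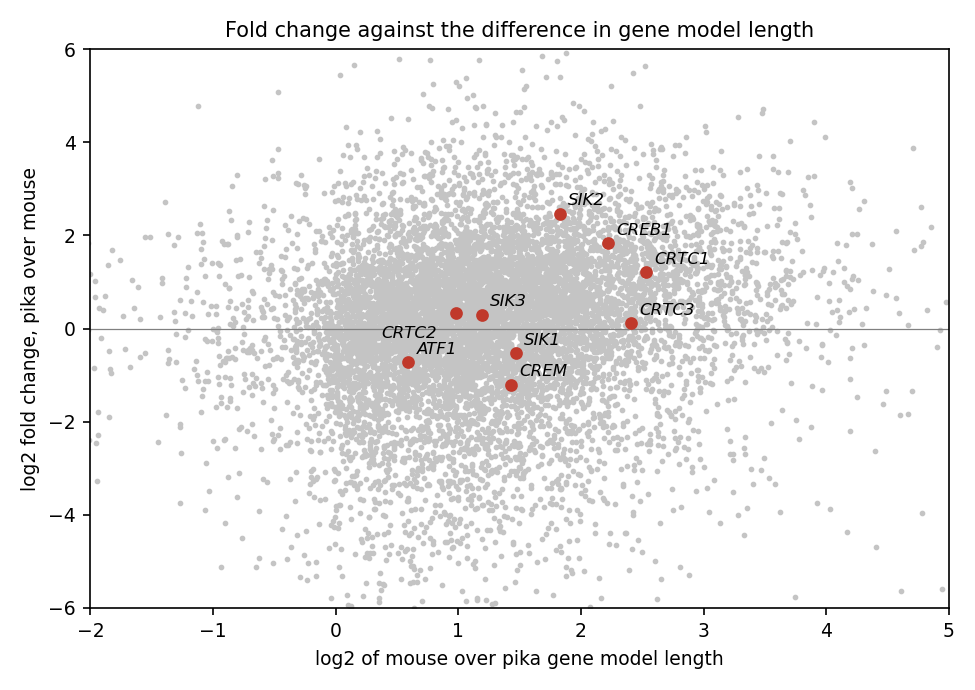
Log2 fold change, pika over mouse, against the log2 ratio of mouse to pika gene model length for tested genes (grey) and the 9 genes (red); 9860 of 9946 tested genes with both lengths lie inside the axes. Fold changes climb with the length ratio over all genes (medians of 0.35 at ratios of 2 to 4 and 0.62 at 4 to 8), SIK2 lies above most genes of its ratio, and CRTC1 and CRTC3 lie nearer the middle of theirs.

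For the member of each group with the highest mean over all 6 libraries together, the tested genes nearest in level over the 6 libraries were found by Euclidean distance on log2(value + 1). For SIK2 these were NIN (distance 0.16), MYCBP (0.21) and NUDT5 (0.22). NIN was at 135 ± 4.77 in pika cells against 23.8 ± 0.895 in mouse cells. For ATF1 they were SLC35A1 (0.24), FBRS (0.29) and EIF2B5 (0.29), and for CRTC2 they were MED24 (0.19), MED11 (0.25) and MEPCE (0.25). The distance reflects 2 levels, pika and mouse, and their spread.

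The genes upstream of CREB were described next, from lists drawn up with earlier results of these data known. Over all tested genes 28.7% were called higher and 23.5% lower, and the counts of each list stand beside these shares without a set test. In the cyclic AMP and protein kinase A list, the 15 tested genes held 5 higher and 6 lower calls (limma-trend), with a median log2 fold change of -0.13. The phosphodiesterase gene PDE4D, which degrades cyclic AMP, was at 45.1 ± 2.09 in pika cells against 9.29 ± 0.669 in mouse cells (log2 fold change 2.16). The adenylyl cyclase genes split, with ADCY9 higher (1.67) and ADCY3 lower (-2.24). AKAP12, an anchoring protein for protein kinase A, was at 39.2 ± 2.02 in pika cells against 428 ± 9.66 in mouse cells (-3.42). The catalytic subunit gene PRKACB (-0.13) and the regulatory subunit gene PRKAR1A (-0.30) had the highest levels among the genes not called. PRKACB was called higher without rescaling (1.08) and lower without gene length (-1.38). PDE4D and AKAP12 stayed called under all the other scalings, while ADCY3 lost its call without rescaling (-0.91) and ADCY9 without gene length (0.85). Without rescaling 4 of the 6 lower calls changed sign.

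In the list of calcium and MAP kinase inputs, the 14 tested genes held 7 higher calls and 1 lower call, with a median of 0.84. Of the 7 higher calls 4 held under all the other scalings, and 1 changed sign without gene length. The lower call was lost without rescaling. CAMK1D (log2 fold change 2.69), CAMK4 (2.44), RPS6KA1 (2.06) and CAMKK2 (1.89) encode kinases of the calmodulin and ribosomal S6 kinase groups. CAMK4, a CREB kinase best known in neurons and T cells, was at 7.22 ± 0.854 in pika cells against 0.515 ± 0.202 in mouse cells, the mouse level on 8 reads. The kinase gene MAPK3 (-0.78) was not called. CAMK1D, CAMK4 and RPS6KA1 stayed called under all the other scalings, and CAMKK2 lost its call without gene length (0.39). CAMK1D and CAMK4 passed the filter only through their pika levels. With the filter at 5 FPKM 6 higher calls of this list were left.

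The LKB1 complex was tested as 5 genes, of which 2 were called higher and 3 were not called. STK11, which encodes LKB1, was at 137, 147 and 136 in pika cells against 68.2, 67.0 and 67.4 in mouse cells (log2 fold change 1.04). Its partner CAB39 was at 162 ± 1.42 in pika cells against 67.7 ± 2.33 in mouse cells (1.245), but turned to -1.66 without gene length. STK11 lost its call without gene length (0.29) and with median-of-ratios scaling (0.87). Values without gene length use the recovered lengths, which can be too short by a whole factor, and whether this bears on CAB39 was not tested. STRADA (0.46) and CAB39L (0.36) were not called, but both were called higher without rescaling (1.62 for STRADA and 1.59 for CAB39L).

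Genes that act on CRTCs after phosphorylation were split. The 9 phosphatase genes held 4 higher and 2 lower calls, and 1 lower call without pika replicate 1 or without mouse replicate 1. The calcineurin catalytic genes differed from each other, with PPP3CB at 236 ± 4.31 in pika cells against 67.0 ± 3.60 in mouse cells (log2 fold change 1.80). PPP3CC was at 2.17 ± 0.186 in pika cells against 31.2 ± 1.74 in mouse cells (-3.34). PPP1CC (1.99) and PPP1CB (1.82), catalytic subunits of protein phosphatase 1, were also higher. PPP3CB, PPP3CC and PPP1CC stayed called under all the other scalings, PPP1CB lost its call without gene length (0.97), and PPP3R1 (-0.06) and PPP2CB (0.04) were not called. Both were called higher without rescaling (1.21 for PPP3R1 and 1.31 for PPP2CB) and without gene length (1.15 for PPP3R1 and 1.21 for PPP2CB). The 7 genes of 14-3-3 proteins held 3 higher calls and 1 lower call. YWHAH (1.65), YWHAQ (1.20) and YWHAZ (1.06) were higher, and SFN, an epithelial form, was lower (-2.51) on 3 reads in pika cells against 46 in mouse cells. YWHAQ and SFN stayed called under all the other scalings, while YWHAH lost its call without gene length (0.47) and YWHAZ with median-of-ratios scaling (0.88). SFN passed the filter only through its mouse level, and with the filter at 5 FPKM 0 of the 14-3-3 genes were called lower. Class IIa histone deacetylases are also phosphorylated by SIKs. Among them HDAC9 was at 33.3 ± 0.780 in pika cells against 1.39 ± 0.255 in mouse cells (3.85). HDAC9 passed the filter only through its pika level. HDAC7 (-0.85) and HDAC5 (0.54) were among the 3 not called. HDAC7 was called lower with median-of-ratios scaling (-1.03) and HDAC5 higher without rescaling (1.72). The CREB coactivators CREBBP (0.42) and EP300 (0.73) were not called, but both were called higher without rescaling (1.61 for CREBBP and 1.896 for EP300), and CREBBP without gene length (1.60).

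Genes known to respond to CREB were described last. Of the 15 listed genes 10 passed the filter, with 6 lower calls and 0 higher calls by limma-trend and a median log2 fold change of -2.44. PER2 and VGF (-2.18, at 0.909 ± 0.318 in pika cells against 7.81 ± 2.33 in mouse cells) passed that filter only through their mouse levels, and with the filter at 5 FPKM 4 lower calls were left. The median of -2.44 lies between the fold changes of these 2 genes and so rests on them. FOS was at 11.7, 13.1 and 13.0 in pika cells against 865, 876 and 885 in mouse cells (log2 fold change -6.01). PTGS2, the inducible prostaglandin synthase (-4.14), the orphan receptor NR4A1 (-4.00) and the phosphatase DUSP1 (-2.78) were lower too. Of the clock genes in the list, PER2 was lower, at 0.179 ± 0.116 in pika cells against 6.71 ± 1.08 in mouse cells (-2.70), on 7 reads in pika cells against 105 in mouse cells. PER1 was not called, at 37.0, 40.5 and 39.6 in pika cells against 43.0, 45.5 and 52.3 in mouse cells (-0.26), and its sign turned without rescaling (0.96) and without gene length (0.30). BDNF (-0.11) was not called, but was called higher without rescaling (1.12), where the lower call of VGF was lost (-0.79). FOS, NR4A1, PTGS2, DUSP1 and PER2 held their calls under all the other scalings.

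**Figure D5:**
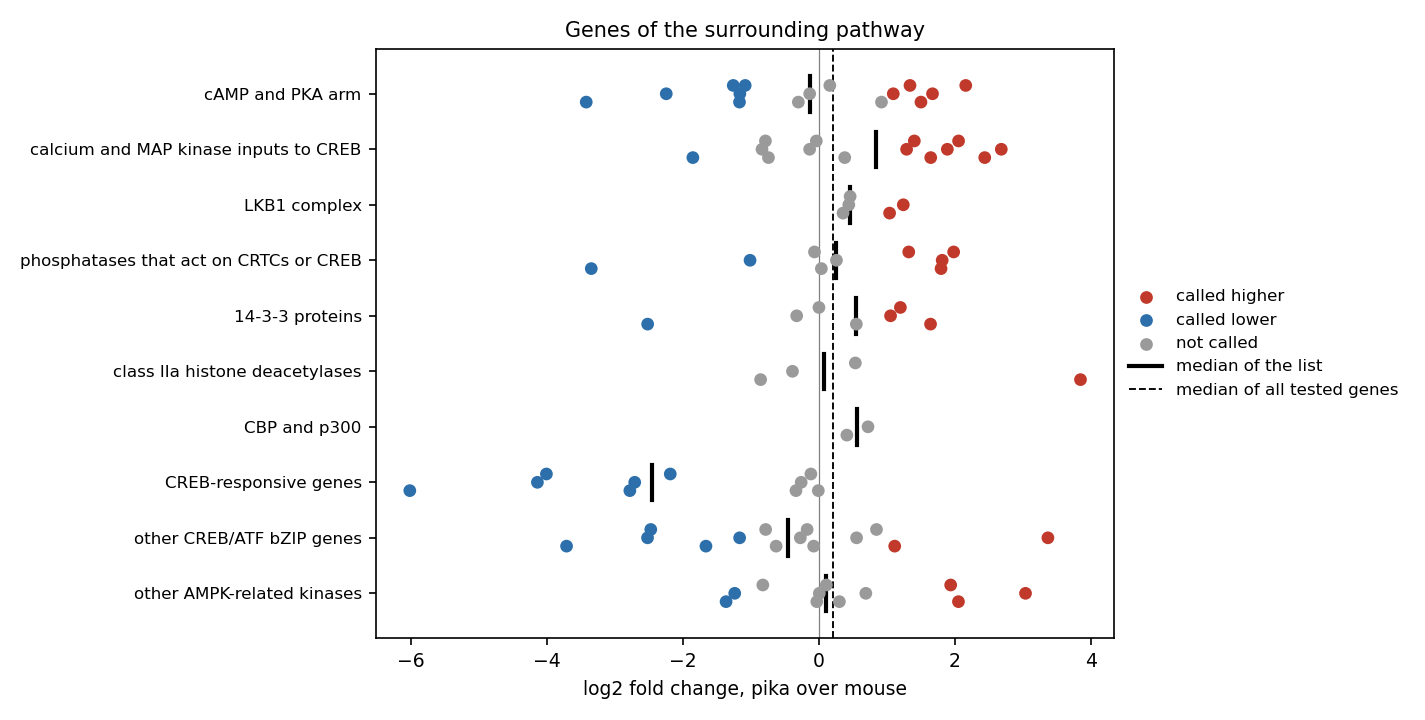
Log2 fold change, pika over mouse, of each tested gene in 10 lists around the CREB, CRTC and SIK genes (points, red for called higher, blue for called lower, grey for not called), with each list's median (bar) and the median of all tested genes at 0.21 (dashed). CREB-responsive genes reach -6.01 for FOS. Their median of -2.44 lies between PER2 and VGF, which passed the filter only through their mouse levels. The other lists hold calls in both directions or few calls. Without rescaling 4 lower calls of the cyclic AMP list change sign.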

How the data were processed

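FPKM per gene was deposited by the authors for each library, per the file headers. CASAVA 1.9, STAR 2.6.1a, featureCounts and edgeR 3.28.1 appear in the submitters' processing notes, which state no order and list GRCm38 as the build. Gene annotations were not given in the sources used here. Pika rows carry symbols, and 49326 of 49585 mouse identifiers were named from a table of mouse genes. Species, genome and annotation cannot be told apart in this design.

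Symbols found once in each table were joined. Genes with a mean deposited FPKM of at least 1 in either species entered a limma-trend fit of log2(rescaled FPKM + 1) with limma 3.58.1 in R 4.3.3, two-sided, with Benjamini-Hochberg adjustment over 10348 genes and without a replicate block. Library totals, gene lengths and reads were worked out from the steps of the FPKM values with a tolerance of 0.002 reads (Python 3.11.15, numpy 2.4.6, pandas 2.3.3, scipy 1.17.1). The reads recovered were 95.7% to 96.3% of the totals. On simulated data with 9270 genes, 100 of 100 genes changed 4-fold and 100 of 100 changed 3-fold were called, with 5 calls among 9070 unchanged genes. The simulation used mouse levels and mouse gene lengths throughout, so it gives no error rate between species.

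Replicates were compared on reads. The mean chi-square per gene was 1.33 to 1.50 for pika pairs and 1.43 to 2.74 for mouse pairs, where sampling alone gives about 1. All libraries were kept as separate samples. Libraries made again from the same RNA or culture would not be told apart by this. Whether the libraries of 1 species stem from different animals or cultures is not in the labels. P-values therefore measure only how far these libraries vary, which may be technical.

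The members and gene lists were chosen with earlier results of these data known. All 9 members were named. From each pathway list up to 4 called genes with the largest absolute fold change and up to 2 uncalled genes with the highest level were named, with PER1, PER2, CREBBP, EP300 and STK11 whatever their call. 1 of the genes this rule names is not reported here. Alternatives were another pseudocount, filter or scale, reads without gene length, limma without trend, a replicate block and leaving out each library.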

Additional observations from a re-analysis of the deposited data

How the results depend on the processing

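Calls and directions of the 9 genes did not change with a pseudocount of 0.1, with no filter on low values, with limma without trend, or with any library left out. Without single libraries SIK2 ranged from 2.43 to 2.51, CREB1 from 1.74 to 1.89, CRTC1 from 1.15 to 1.28 and CREM from -1.48 to -1.05. A replicate block kept the 3 higher and 1 lower member calls and gave 2972 higher and 2433 lower calls over all genes. Same-numbered libraries correlated at -0.01, 0.05 and 0.01 in their deviations from the species means. These values show no shared shift by number, but cannot tell whether same-numbered libraries were handled together.

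With a pseudocount of 5 CREM was at -0.69 and 0 members were called lower. The filter at 5 FPKM removed CREM, which left 0 members called lower, and 1584 genes were called lower over all genes. With median-of-ratios scaling CRTC3 was at -0.052. Without rescaling 6029 genes were called higher and 1106 lower, against 2970 and 2433 as reported, and 6 members were called higher and 0 lower. There CRTC2 (1.504), SIK3 (1.49) and CRTC3 (1.23) gained a call, CREM lost it (-0.12), and ATF1 (0.52) and SIK1 (0.59) changed sign. On reads without gene length 1 member was called higher and 2 lower, with CREB1 at 0.71, CRTC1 at -0.21 and CRTC3 at -1.22.

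The shares also moved without gene length. They became 64.0% in pika and 44.1% in mouse for CREB1, 33.9% in pika and 47.1% in mouse for ATF1, 3.16% in pika and 10.96% in mouse for SIK1, 60.6% in pika and 32.1% in mouse for SIK2, and 36.2% in pika and 57.0% in mouse for SIK3. In mouse they became 28.1% for CRTC1, 28.3% for CRTC2 and 43.6% for CRTC3. The ratio of CRTC to SIK became 0.338 in pika and 0.740 in mouse. The cause was not tested. Of the counts of the surrounding lists, 14 of 20 moved by over 1.5 times without rescaling and 8 of 20 without gene length.

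Depth limits CREM most, with 62 reads in pika and 120 in mouse. The smaller mouse totals make low mouse values less exact.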

Other observations

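Relatives of the 9 genes were called about as often as tested genes in general, of which 52.2% were called. The shares were 50.0% in the CREB and ATF bZIP group and 45.5% among AMPK-related kinases. Among other genes of the CREB and ATF bZIP group, the 14 tested held 2 higher and 5 lower calls in pika by limma-trend, with a median log2 fold change of -0.45. CREB5 was at 33.5, 36.0 and 32.5 in pika cells against 2.50, 2.26 and 2.39 in mouse cells (3.37). The stress-induced ATF3 was at 9.11 ± 1.48 in pika cells against 130 ± 5.95 in mouse cells (-3.71), and ATF5 (-2.52) and CREB3L4 (-2.47, on 6 reads in pika cells against 31 in mouse cells) were lower too. ATF4, the main factor of the integrated stress response, was at 483 ± 72.6 in pika cells against 540.0 ± 30.1 in mouse cells (-0.17) and was not called, nor was CREB3L1 (-0.78). Without rescaling ATF4 was called higher (1.12). CREB5, ATF3 and ATF5 stayed called under all the other scalings, and CREB3L4 lost its call without rescaling (-0.94). CREB3L4 passed the filter only through its mouse level and CREB5 only through its pika level. With the filter at 5 FPKM 3 lower calls of this group were left.

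Among other AMPK-related kinases the 11 tested held 3 higher and 2 lower calls (limma-trend), with a median of 0.11. PRKAA2, a catalytic subunit of AMPK, was at 13.5 ± 1.09 in pika cells against 0.761 ± 0.183 in mouse cells (log2 fold change 3.04). Its mouse level rested on 16 reads, and it passed the filter only through its pika level. MARK1 (2.06) and the proliferation-linked MELK (1.94) were also higher, and all 3 stayed called under the other scalings. MARK4 was lower (-1.36) and lost its call without rescaling (-0.10). PRKAA1 (0.31) and MARK3 (0.01) were not called, but both were called higher without rescaling (1.55 for PRKAA1 and 1.27 for MARK3).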
